A study of Temora longicornis with 12 samples.

Results

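The transcripts described here are the 200 well expressed transcripts of the copepod Temora longicornis whose levels varied least over 12 RNA sequencing libraries, out of 44985 assembled transcripts. They were chosen from the measured values themselves. Levels were expressed as CPM, in which a count is divided by the total of its library and scaled to a common total. TRINITY_DN157064_c6_g3_i1, which had the highest total count and the share that differed most between libraries, was set aside before the totals were taken. The 200 transcripts with the highest median CPM were left out, a median of 20 CPM or more was required of the rest, which left 6677, and the 200 with the lowest coefficient of variation (CV, the SD over the mean) over all 12 libraries were kept. The other 6477 served for comparison. Because low spread was the criterion, the low CV of the 200 is a description and not a finding. The values that did not enter the choice are those of libraries that were held out while the choice was made again.

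Temora longicornis is a small planktonic crustacean of temperate coastal seas that feeds on plankton and is eaten by fish. It does not regulate its body temperature, so warming of the water reaches every tissue. Transcripts that keep a constant level across treatments are known as reference or housekeeping transcripts. They commonly belong to basic functions such as protein synthesis, the cytoskeleton and energy metabolism, and they serve as internal standards when other transcripts are measured. Levels are shares of the sequenced RNA, so a constant share does not show a constant number of molecules per animal.

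Whole adults were sampled after 120 h in aerated vessels kept in the dark. For the acute group, 4 days at 14 °C preceded a final 24 h at 17 °C. Sustained animals were warmed to 17 °C within 24 h and kept warm to the end. Recovery animals were warmed in the same way and returned to 14 °C for the final 24 h. Controls never left 14 °C. Each group had 4 replicates, of which 3 were sequenced. How many animals went into a library is not stated in the labels, and replicate numbers below only name libraries in the order of their listing. P-values therefore measure the spread between these libraries. The libraries held 11582848 to 32504862 counts, of which the transcript set aside took 0.00387% to 53.1%. Control replicate 2 was the shallowest library and the one in which transcripts outside the 200 most often lay farthest from their mean (27.6%). Some of the results that rest on it are given with and without it, and the rest only with it.

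The transcripts carry identifiers of the Trinity assembler, in which DN and c numbers give a cluster of overlapping reads, g a putative gene within it and i an isoform of that gene. The deposited table pairs no identifier with a gene name, a function or a sequence, so the transcripts are given by identifier, and the tissue could not be checked against marker genes. The 200 came from 200 putative genes in 198 components. The pairs that shared a component were TRINITY_DN183458_c1_g3_i1 with TRINITY_DN183458_c1_g2_i1, and TRINITY_DN190913_c0_g8_i1 with TRINITY_DN190913_c0_g6_i3. The names differed in make-up from those of the comparison set. The rule did not read the names, but it ranked counts of single isoforms. The sets were not matched for level, with medians of 94.5 CPM for the 200 and 45.5 CPM for the other 6477. Whether the difference in names followed from the choice was not tested. A single listed isoform was the case for 174 of the 200 (87%), against 74.6% of the other 6477 and 61.7% of all 44985. A component with no other listed gene was the case for 61% of the 200, against 42.9% of the other 6477 and 43.5% of all listed.

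The CV of the 200 ranged from 3.11% to 8.2%, with a median of 7.25%, against a median of 17.1% for the other 6477. It was under 4% for 2 transcripts, under 5% for 8, under 6% for 30 and under 7% for 83. The highest library exceeded the lowest by 1.12-fold to 1.40-fold, with a median ratio of 1.27, where the other 6477 had a median ratio of 1.81. All 200 stayed under 1.5-fold from the lowest to the highest of the 12 libraries. In whole animals, a lower share of cells of one type and less RNA per cell cannot be told apart, and the same holds for a level that stays constant.

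**Figure D1:**
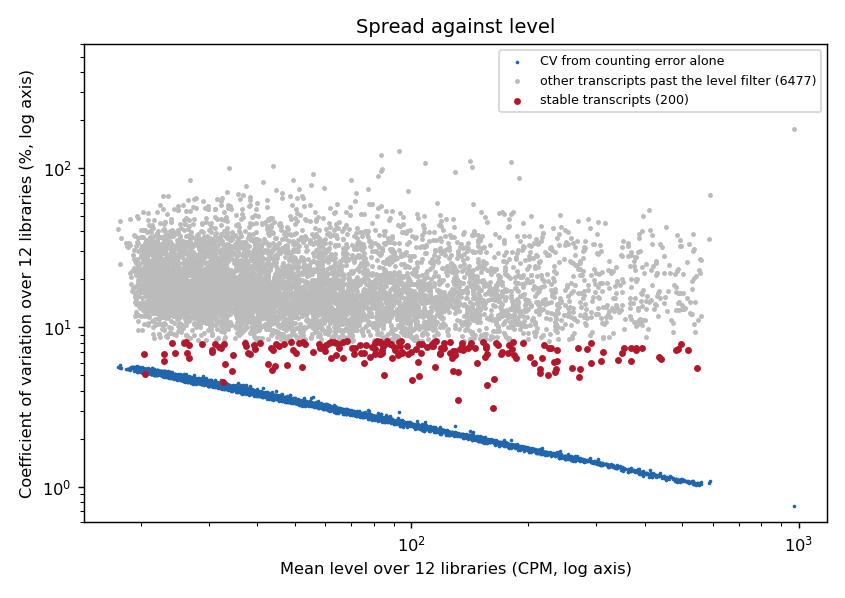
Coefficient of variation over 12 libraries (%, log axis) against mean level (CPM, log axis) for the 200 stable transcripts (red), the other 6477 transcripts past the level filter (grey) and the spread that counting error alone would give each transcript (blue). The red points form the lower edge of the cloud, between 3.11% and 8.2%, and meet the blue band at the lowest levels.

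The transcript with the lowest spread, TRINITY_DN182431_c0_g30_i1, was at 159, 157 and 163 CPM in the acute libraries, 169.9, 163 and 159.8 CPM in the sustained libraries, 167, 162 and 167 CPM in the recovery libraries and 152, 168 and 163 CPM in the control libraries. The libraries of all 4 groups overlapped, and the lowest and the highest value lay in control replicate 1 and sustained replicate 1. Its CV was 3.11%, against 1.92% that counting error alone would give at this depth. TRINITY_DN194022_c1_g1_i1, with a CV of 3.48%, was at 126, 133 and 136 CPM in the acute libraries, 133, 131 and 128 CPM in the sustained libraries, 133, 136 and 138 CPM in the recovery libraries and 133, 136 and 123 CPM in the control libraries. Again the libraries of every pair of groups overlapped, with the lowest value in control replicate 3 and the highest in recovery replicate 3. TRINITY_DN176712_c5_g7_i1, with a CV of 4.37%, was at 154, 148 and 161 CPM in the acute libraries, 160.5, 158 and 163 CPM in the sustained libraries, 169.8, 158 and 158 CPM in the recovery libraries and 150.4, 145 and 157 CPM in the control libraries. Here the highest value was in recovery replicate 1 and the lowest in control replicate 2, and the sustained and the recovery libraries all lay above the 3 control libraries.

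Among the other 5 of the 8 lowest, TRINITY_DN190929_c2_g2_i3 was the least abundant, at 31.8, 31.8 and 34.8 CPM in the acute libraries, 34.2, 31.7 and 31.5 CPM in the sustained libraries, 31.3, 32.98 and 32.1 CPM in the recovery libraries and 31.2, 35.6 and 31.6 CPM in the control libraries. Its group means were 32.8 ± 1.71 CPM (SD, n = 3) in the acute group, 32.5 ± 1.53 CPM in the sustained group, 32.1 ± 0.82 CPM after recovery and 32.8 ± 2.4 CPM in controls. Its CV of 4.57% was close to the 4.31% of counting error alone, so at this depth little spread beyond counting was detectable. TRINITY_DN190534_c2_g3_i1, with a CV of 4.66%, was at 103, 107 and 99.6 CPM in the acute libraries, 102, 105 and 106 CPM in the sustained libraries, 95.03, 99.9 and 93.05 CPM in the recovery libraries and 96.9, 93.9 and 100.5 CPM in the control libraries. The sustained libraries were above every recovery and control library, and 65.6% of its variance lay between groups. Chance differences between group means add to such a share. TRINITY_DN185355_c0_g4_i1 had a CV of 4.74% around a mean of 164 CPM. TRINITY_DN170914_c1_g1_i1 had a CV of 4.9% around 271 CPM, and its lowest value was in acute replicate 1. TRINITY_DN172285_c2_g2_i1 had a CV of 4.98% around 105 CPM, with 16.3% of its variance between groups.

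**Figure D2:**
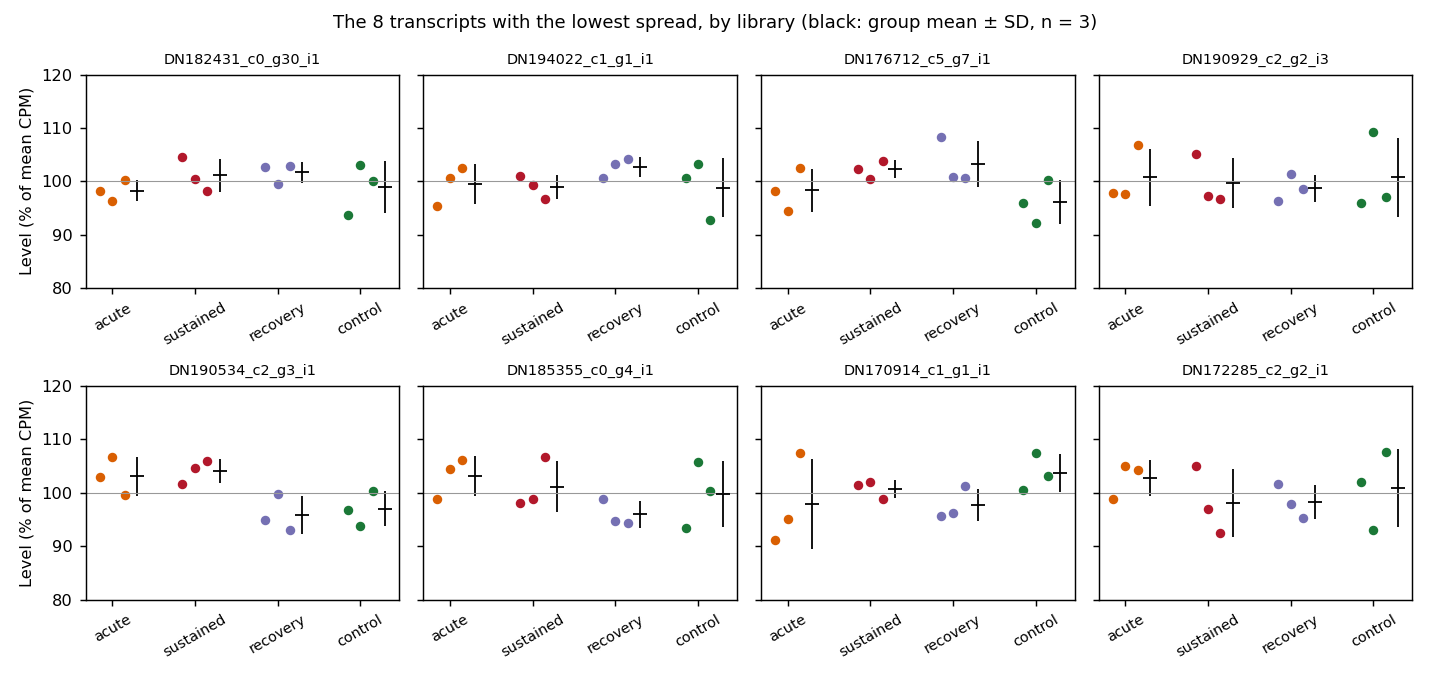
Levels of the 8 transcripts with the lowest coefficient of variation, as a percentage of each transcript's mean over 12 libraries, in acute, sustained, recovery and control libraries (1 point per library; black, group mean ± SD, n = 3). No library lies more than 10% from the mean of its transcript.

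The members spanned a wide range of levels. Their mean level ran from 20.4 to 547 CPM with a median of 94.5 CPM, against a median of 45.5 CPM for the other 6477. Under 50 CPM, 40 of 3589 transcripts were members (1.11%), from 50 to 100 CPM 64 of 1705 (3.75%), from 100 to 200 CPM 58 of 906 (6.4%), and at 200 CPM or more 38 of 477 (7.97%). The lowest count of any member in any library was 172. Counting error alone would give the members a median CV of 2.52%, and the median share of a member's variance that it accounted for was 11.8%. That share was 35.6% for members under 50 CPM and 4.54% for those at 200 CPM or more. At low levels more of the spread allowed by the rule was thus taken up by counting error.

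At the upper end, TRINITY_DN177652_c0_g10_i1 was at 536, 562 and 599 CPM in the acute libraries, 524, 492 and 556 CPM in the sustained libraries, 524, 569 and 543 CPM in the recovery libraries and 556, 587 and 518 CPM in the control libraries, with a CV of 5.57%. TRINITY_DN175632_c1_g2_i1 averaged 517 CPM over the 12 libraries and TRINITY_DN167761_c0_g3_i1 496 CPM, with CVs of 7.17% and 7.9% in that order. The least abundant of the transcripts left out for abundance had a median of 563 CPM. At the lower end, TRINITY_DN183037_c0_g16_i1 was at 20.6, 21.8 and 20.7 CPM in the acute libraries, 20.7, 18.6 and 20.98 CPM in the sustained libraries, 20.9, 21.9 and 19.8 CPM in the recovery libraries and 18.97, 19.9 and 21.6 CPM in the control libraries. Its CV of 5.09% was under the 5.41% of counting error alone, so its spread was not distinguishable from counting. TRINITY_DN191791_c1_g1_i1 and TRINITY_DN173987_c1_g3_i1, at means of 20.4 and 22.96 CPM, had CVs of 6.85% and 6.8%.

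The edge of the set was not a gap in the data. The last members were TRINITY_DN184268_c0_g8_i1 with a CV of 8.193% and TRINITY_DN174769_c0_g2_i1 with 8.1975%, and the first transcripts beyond the limit were TRINITY_DN190614_c3_g1_i3 with 8.19774% and TRINITY_DN186198_c0_g1_i1 with 8.20003%. TRINITY_DN174769_c0_g2_i1 also held the most extreme single library of any member. It was at 92.7, 88.2 and 94.9 CPM in the acute libraries, 90.5, 103 and 93.7 CPM in the sustained libraries, 75.3, 97.9 and 102 CPM in the recovery libraries and 104, 93.9 and 94.8 CPM in the control libraries, and recovery replicate 1 lay 0.32 below the mean on the log2 scale. The other libraries of that transcript, recovery replicates included, lay between 88.2 and 104 CPM.

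Spread within groups was set beside spread between groups. The pooled within-group SD was 7.01% of the mean in the median member, against 17.3% for the other 6477. By group, the median within-group CV of the members was 7.22% in acute, 5.76% in sustained, 6.28% in recovery and 6.17% in control libraries. For the other 6477 it was 13.6% in acute, 12.3% in sustained, 19.2% in recovery and 15.1% in control libraries. Without control replicate 2 the control values were 4.46% for the members and 7.98% for the others. With all libraries, the acute value was the highest of the 4 for the members and the recovery value for the others. The spread within groups entered the choice of the members, so nothing is read from this difference in order. It was not tested.

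The share of a transcript's variance that lay between the 4 groups had a median of 24.5% over the members and 24.4% over the other 6477. The medians were close, and the upper ends were not. The 95th percentile was 59.3% over the members and 52.3% over the others, and a share over 50% was found for 24 of the 200 members (12%) and for 6.62% of the others. The share ranged from 1.19% to 74.8% among the members. Group means differed by 8.4% of the transcript's mean from the lowest to the highest group in the median member, against 21% for the others. This range was under 5% for 28 members, under 10% for 126 and under 15% for 196, and its highest value was 17%. The shares and ranges come from the libraries that chose the members, and a low CV favours a narrow range. Nothing is read from the contrasts with the others. Means of few libraries differ by chance, so part of the variance falls between groups even without any effect of treatment. That part was not subtracted, and no share is read as an effect of treatment.

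TRINITY_DN192040_c0_g5_i1 had the largest share of variance between groups (74.8%). It was at 185, 193 and 181 CPM in the acute libraries, 191, 195 and 201 CPM in the sustained libraries, 203, 189 and 190.2 CPM in the recovery libraries and 162, 171 and 179 CPM in the control libraries. All control libraries were below all others, and the acute, sustained and recovery libraries overlapped. TRINITY_DN175564_c1_g8_i1, with a share of 69.9%, was at 48.3, 46.7 and 48.5 CPM in the acute libraries, 45.9, 40.98 and 43.1 CPM in the sustained libraries, 42.7, 45.97 and 42.6 CPM in the recovery libraries and 42.7, 42.96 and 42.4 CPM in the control libraries. The acute libraries were above those of the other 3 groups, which overlapped one another. TRINITY_DN178535_c2_g3_i2, with a share of 69.2%, was at 37.9, 43.1 and 38.5 CPM in the acute libraries, 38.1, 33.3 and 34.7 CPM in the sustained libraries, 41.4, 42.9 and 41.8 CPM in the recovery libraries and 39.5, 40.6 and 39.01 CPM in the control libraries. Its recovery libraries were all above its control libraries, which were all above its sustained libraries, and the acute libraries overlapped those of every other group. At the other extreme, TRINITY_DN191421_c3_g3_i1 had 1.19% of its variance between groups, with group means of 105 ± 7.64 CPM (SD, n = 3) in the acute, 107 ± 13.4 CPM in the sustained, 106 ± 3.51 CPM in the recovery and 106 ± 6.34 CPM in the control group. TRINITY_DN185687_c1_g5_i2 had 1.64% between groups, and its sustained libraries alone, at 139, 123 and 164 CPM, held both its lowest and its highest value.

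Part of the remaining spread was common to the members. Their summed share of the counts was 2.63% ± 0.0672 (SD over 12 libraries), from 2.5% in sustained replicate 2 to 2.71% in recovery replicate 1. In log2 units, the median deviation of the members from their mean was -0.07 in sustained replicate 2, -0.06 in control replicate 1, -0.05 in acute replicate 1 and 0.05 in recovery replicate 1. The other 6477 deviated in the same direction in these libraries, with medians of -0.11 in sustained replicate 2 and 0.14 in recovery replicate 1. When each library was divided by the median deviation of the members, their median CV was 6.48%, against 7.25% before. These divisors came from the members themselves, which favours a lower CV. With TMM factors (trimmed means of ratios between libraries) it was 7.15%. Pairwise Pearson correlations between members over the 12 libraries, which share library totals, had a median of 0.144, with the 5th and 95th percentiles at -0.443 and 0.634. The members therefore did not move as a single block.

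Acute replicate 1 was the library farthest from the mean for 36 of the 200 members (18%), followed by sustained replicate 2 for 26 and recovery replicate 1 for 25. For the other 6477, control replicate 2 was the farthest library in 27.6%, against 10.5% of the members. Median absolute deviations of the members ranged from 0.0517 in sustained replicate 1 to 0.0909 in sustained replicate 2 on the log2 scale, a narrower range than the 0.104 in control replicate 3 to 0.273 in recovery replicate 1 of the others.

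**Figure D3:**
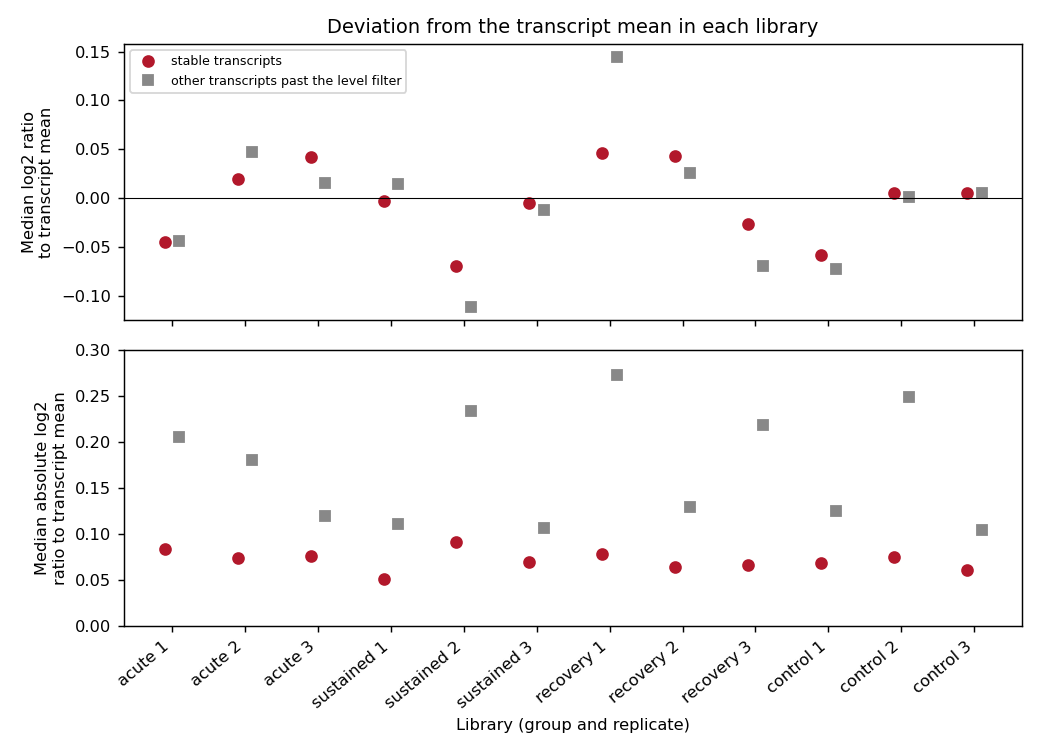
Deviation from each transcript's mean over 12 libraries, in log2 units, for the 200 stable transcripts (red circles) and the other 6477 past the level filter (grey squares): upper panel, median signed deviation per library; lower panel, median absolute deviation per library. The stable transcripts stay within 0.0909 in the lower panel, and in the upper panel the red and grey points share most directions, with recovery replicate 1 highest and sustained replicate 2 lowest in both.

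The order of the group means was uneven across members. The recovery group had the highest mean for 78 of the 200, the acute group for 63, the control group for 31 and the sustained group for 28. The sustained group had the lowest mean for 80 members, the control group for 55, the acute group for 44 and the recovery group for 21. In the order just given, the groups were thus highest for 39%, 31.5%, 15.5% and 14% of the members. Among the other 6477 the recovery group was highest in 28.8%, the acute in 31.6%, the control in 19.6% and the sustained in 19.9%. The sustained group was lowest for 40% of the members, the control for 27.5%, the acute for 22% and the recovery for 10.5%. Among the other 6477 these shares were 32%, 28.3%, 25.9% and 13.8%. The counts depended on single libraries. Without acute replicate 1 the acute group was the highest for 90 members and the recovery group for 64, and without recovery replicate 1 these counts were 71 and 70. Without sustained replicate 2 the sustained group was lowest for 56 and the control group for 67, and without acute replicate 3 the acute group was lowest for 78 and the sustained group for 60. Without control replicate 3 the control group was lowest for 71 and the sustained group for 70, and without recovery replicate 2 the acute group was highest for 75 and the recovery group for 72. With TMM factors the recovery group was highest for 75, the acute group for 55, the control group for 40 and the sustained group for 30. The lowest group under TMM was the sustained group for 77, the acute group for 59, the control group for 40 and the recovery group for 24, so the acute and control groups changed places in the order of lowest means. RLE factors, medians of ratios between libraries, gave 61 for the acute and 38 for the control group.

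Differences between groups were fitted with edgeR's quasi-likelihood test on all 40943 transcripts with enough counts, and all 200 members were among them. The fit estimates differences between groups in log2 units after TMM scaling. With an adjusted p under 0.05 (Benjamini-Hochberg over all tested), edgeR called 0 members in any of the 6 pairs of groups or across the 4 groups, and 0.0% of all transcripts tested in each. At an unadjusted p under 0.05 the edgeR count was also 0 members in every pair. The share of all tested transcripts past that level was 3.9% for acute against control, 4.45% for sustained against control, 3.18% for recovery against control, 2.14% for recovery against sustained, 4.99% for sustained against acute and 3.91% for recovery against acute, and 3.0% across the 4 groups. DESeq2 also gave 0 members at an adjusted and at an unadjusted p under 0.05 in every comparison. The rule kept transcripts with small differences, so a low count is part of the choice and nothing is read from it. The fit also assigns each member a spread drawn toward that of other transcripts of its level, with a median SE of 0.14, whereas the members' own within-group spread would give a median SE of 0.08.

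The fitted differences were small in every pair. The median absolute log2 difference of the members was 0.05 for acute against control, 0.05 for sustained against control, 0.05 for recovery against control, 0.05 for recovery against sustained, 0.06 for sustained against acute and 0.06 for recovery against acute. For the other 6477 the same medians ran from 0.13 to 0.17. The largest difference of any member was 0.24, for recovery against sustained. For all 200 members the approximate 95% interval of the fitted difference stayed inside 1.5-fold in each of the 6 pairs, against 43.1% to 52.6% of the other 6477. These intervals come from the libraries that chose the members, and nothing is read from the contrast.

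**Figure D4:**
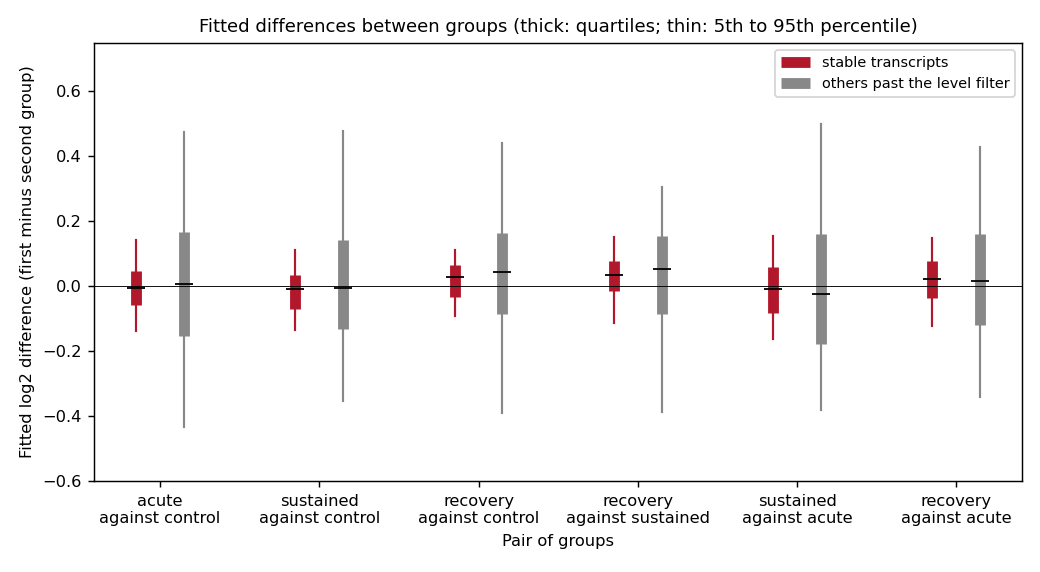
Fitted log2 differences for the 6 pairs of groups (first-named minus second-named group) in the 200 stable transcripts (red) and the other 6477 past the level filter (grey); black ticks are medians, thick bars quartiles and thin bars the 5th to 95th percentiles. The red bars stay between -0.161 and 0.154, and the grey bars run from -0.433 to 0.501.

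For some members the libraries of 2 groups did not overlap in CPM. For acute against control this held for 18 members (9%), 16 higher and 2 lower in acute libraries, where the share among all 6677 transcripts past the level filter was 10.5%, 6.8% higher and 3.68% lower. For sustained against control it held for 18 (9%), 8 higher and 10 lower, with shares of 7.23%, 4.55% and 2.68% among all 6677. For recovery against control it held for 15 (7.5%), 14 higher and 1 lower, with shares of 3.38%, 2.35% and 1.03%. The recovery libraries were thus the upper ones in nearly all such members. The median log2 deviation of all members was -0.06 in control replicate 1 and 0.005 in control replicates 2 and 3. It was 0.05, 0.04 and -0.03 in recovery replicates 1, 2 and 3. Separation was counted without TMM factors, and whether its direction followed these deviations of whole libraries was not tested. For recovery against sustained it held for 20 (10%), 15 higher and 5 lower, with shares of 4.9%, 3.04% and 1.86%. For sustained against acute it held for 26 (13%), 5 higher and 21 lower, with shares of 17.1%, 7.1% and 10%. For recovery against acute it held for 16 (8%), 10 higher and 6 lower, with shares of 6.05%, 3.31% and 2.74%. These shares use the libraries that chose the members and are given as values. In 129 of the 200 members no pair of groups was separate, in 42 one pair was, and in 29 more than 1.

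The members with the smallest edgeR p in each direction were as follows, and such a choice favours large estimates. After the acute exposure TRINITY_DN188989_c0_g6_i1 was at 96.8, 106 and 106 CPM, against 83.5, 95.6 and 92.2 CPM in the control libraries, a log2 difference of 0.17 ± 0.12 (SE; edgeR adjusted p = 0.9866). TRINITY_DN180823_c0_g20_i1 was at 185, 220.0 and 214 CPM in acute libraries, against 236, 251 and 218 CPM in control libraries, with a log2 difference of -0.21 ± 0.13 (SE; edgeR adjusted p = 0.9866). For the first transcript the acute libraries were all higher, and for the second acute replicate 2 lay inside the control range. Acute replicate 1 was the lowest of the 12 libraries for the second transcript.

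For sustained against control, TRINITY_DN192040_c0_g5_i1 (values above) had a log2 difference of 0.19 ± 0.12 (SE; edgeR adjusted p = 0.9795), and for recovery against control the same transcript had 0.17 ± 0.12 (SE; edgeR adjusted p = 0.9996). These comparisons share the control libraries. TRINITY_DN175476_c0_g1_i1 was at 75.6, 76.7 and 77.6 CPM in sustained libraries, against 79.7, 98.04 and 86.9 CPM in control libraries, a log2 difference of -0.20 ± 0.13 (SE; edgeR adjusted p = 0.9795). The sustained libraries were below the control libraries, whose highest value was in replicate 2. TRINITY_DN190908_c6_g2_i1 was at 73.95, 77.6 and 74.9 CPM in recovery libraries, against 82.6, 86.96 and 90.3 CPM in control libraries, a log2 difference of -0.21 ± 0.14 (SE; edgeR adjusted p = 0.9996). The recovery libraries were again below all control libraries.

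For recovery against sustained, TRINITY_DN178535_c2_g3_i2 (values above) had a log2 difference of 0.24 ± 0.14 (SE; edgeR adjusted p = 0.9999), the largest of any member. TRINITY_DN193356_c3_g1_i1 was at 139, 167 and 158 CPM in recovery libraries, against 174, 184 and 173 CPM in sustained libraries, a log2 difference of -0.21 ± 0.13 (SE; edgeR adjusted p = 0.9999). Recovery replicate 1 was the lowest of the 12 libraries there. For sustained against acute, TRINITY_DN193692_c3_g8_i1 was at 67.5, 68.7 and 71.1 CPM in sustained libraries, against 61.6, 63.2 and 55.5 CPM in acute libraries, and TRINITY_DN180738_c2_g5_i1 was at 111, 101 and 103 CPM in sustained libraries, against 118, 129.9 and 123 CPM in acute libraries. Neither pair of groups overlapped, and the log2 differences were 0.22 ± 0.15 (SE; edgeR adjusted p = 0.9426) and -0.21 ± 0.13 (SE; edgeR adjusted p = 0.9403) in that order. For recovery against acute, TRINITY_DN173744_c0_g3_i1 was at 210.1, 196 and 191 CPM in recovery libraries, against 149.8, 172 and 188 CPM in acute libraries, a log2 difference of 0.23 ± 0.13 (SE; edgeR adjusted p = 0.9999). The recovery libraries were all higher there, and the unadjusted edgeR p of 0.0947 was the smallest of any member in any pair. TRINITY_DN188166_c0_g4_i1 was at 325, 363 and 317 CPM in recovery libraries, against 388, 379 and 362 CPM in acute libraries, a log2 difference of -0.16 ± 0.13 (SE; edgeR adjusted p = 0.9999), and recovery replicate 2 lay just above the lowest acute library.

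Whether low spread carried over to libraries that had no part in the choice was asked by leaving out 1 treatment group, choosing 200 transcripts in the same way on the 9 libraries of the other 3 groups and reading them in the group left out. Of the transcripts so chosen, 124 were among the 200 members when the acute group was left out, 148 for the sustained, 110 for the recovery and 108 for the control group. All 4 choices shared 60 transcripts, every one of them a member, and 13 members were in none of the 4. No single group decided the place of these 60.

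In the acute libraries, the transcripts chosen without them had a group mean that lay a median of 0.0889 log2 units from the mean of the other 9 libraries, against 0.138 for the other transcripts past the level filter. In the sustained libraries these medians were 0.0744 for the chosen and 0.127 for the others, in the recovery libraries 0.0698 and 0.106, and in the control libraries 0.0737 and 0.111. The chosen transcripts were thus closer to the level of the other groups in all 4 cases. The chosen and the other transcripts were not matched for level, on which counting error depends. What part level had in this contrast was not tested. Single libraries moved the medians of the groups left out for both sets. Without recovery replicate 3 the recovery medians were 0.126 for the chosen and 0.179 for the others, and without control replicate 3 the control medians were 0.113 and 0.147. With each of the 12 libraries left out in turn, the median of the chosen was below that of the others in 48 of 48 combinations of group and library. These combinations share most of their libraries and are not independent. Their median CV within the group left out was 9.55% in acute, 7.36% in sustained, 11% in recovery and 10.6% in control libraries, against 13.5%, 12.2%, 19.1% and 14.9% for the others in the same order. Over the 9 libraries that chose them it was 6.32%, 6.91%, 6.31% and 6.53%. With all libraries, the CV of the chosen transcripts in each group left out was below that of the other transcripts. A CV over 3 libraries of 1 group is not comparable with one over 9 libraries of 3 groups, which the choice made low. The CVs in the groups left out are therefore not set against those of the 9 libraries. Over the 2 control libraries left without control replicate 2, the CV was 5.33% for the chosen and 7.96% for the others. Over 2 sustained libraries the CV of the chosen was 5.77% without replicate 1, 5.49% without replicate 2 and 6.77% without replicate 3. The same limit holds for a CV over 2 libraries of 1 group. These values are therefore not set against the 6.53% and 6.91% of the libraries that chose the transcripts. The CV of the chosen stayed below that of the others in all 48 of these overlapping combinations.

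A group mean within 1.1-fold of the other 9 libraries was found for 139 of 200 chosen transcripts in the acute, 167 in the sustained, 165 in the recovery and 148 in the control group, against 49.8%, 53.9%, 62.1% and 58.4% of the others in the same order. The chosen transcripts whose 3 held-out libraries lay wholly outside the range of the other 9 numbered 6 for the acute group (0.899% of the others), 4 for the sustained (0.432%), 3 for the recovery (0.419%) and 3 for the control group (0.108%). Narrow ranges in the 9 libraries make such separation easier to reach.

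**Figure D5:**
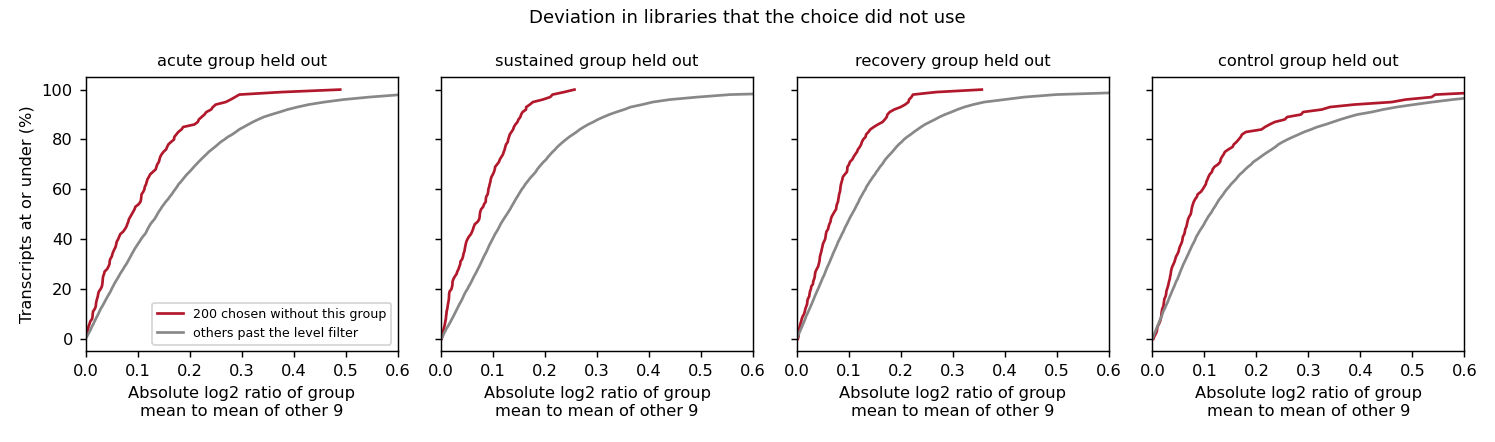
Share of transcripts (%) at or under a given absolute log2 ratio of the held-out group's mean to the mean of the other 9 libraries, in panels for the acute, sustained, recovery and control group, for 200 transcripts chosen without that group (red) and the others past the level filter (grey); the axis ends at 0.6. The red line is left of the grey line at the median in each panel, at 0.0889 against 0.138 in the acute panel, and its upper end is most drawn out in the control panel.

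The control group had the longest tail, with a 95th percentile of 0.46 log2 units among the chosen, against 0.27 in the acute, 0.176 in the sustained and 0.215 in the recovery group. Without control replicate 2, the 95th percentile in the control group was 0.171 and the median 0.052, against a median of 0.0877 for the others. TRINITY_DN175741_c1_g3_i2, singled out after its values were seen, had a CV of 7.48% over the 9 libraries of the other groups, which lay between 46.5 and 58.3 CPM. It was at 45.2, 0.693 and 48.6 CPM in the control libraries. The low value was that of control replicate 2, and the other control libraries were within or just under the range of the 9.

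Each library was then left out alone, a step added after the data were seen. Between 122 (control replicate 2 left out) and 181 of the 200 members were chosen again. Of 200 transcripts chosen on the other 11 libraries, 12 were more than 2-fold away in control replicate 2, all of them lower, and 0 were in any other single library left out in the same way. Among the transcripts not chosen, 12.2% were more than 2-fold away in control replicate 2, and 0.463% to 4.88% in the other libraries. More than 1.5-fold away were 23 chosen transcripts in control replicate 2, 19 lower and 4 higher, and at most 1 in any other library. Among the transcripts not chosen this held for 23.7% in control replicate 2 and for 2.04% to 13.6% in the other libraries. TRINITY_DN182449_c0_g15_i1 showed the widest gap. It lay between 60.4 and 70.2 CPM in 11 libraries, with a CV of 6.05%, and at 1.73 CPM in control replicate 2, from 15 counts. TRINITY_DN168587_c0_g1_i1 was at 80.6 to 101 CPM in 11 libraries and at 6.12 CPM in control replicate 2, and TRINITY_DN172638_c0_g2_i1 at 214 to 261 CPM and 22.4 CPM. These 3 were picked after their values were seen. None of them is among the 200 members, since the choice over all 12 libraries required a low spread in control replicate 2 as well. What sets that library apart was not tested.

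Of the 200 members, 26 had another isoform of the same putative gene in the table, 1 each. The other isoform was at a lower level in 25 of the 26 and had a higher CV in all 26, with a median level of 4.52 CPM and a median CV of 27.2%, of which counting error alone would give 11.4%. The choice itself, which kept the isoform with the low CV, favours this order. TRINITY_DN170914_c1_g1_i1, at 271 CPM with a CV of 4.9%, stood beside TRINITY_DN170914_c1_g1_i2 at 14.2 CPM with a CV of 45.4%, and the summed counts of the gene had a CV of 6.19%. TRINITY_DN178066_c1_g1_i1, at 259 CPM with a CV of 5.6%, stood beside TRINITY_DN178066_c1_g1_i3 at 64.5 CPM with a CV of 17.8%, where counting error alone would give 2.99%. The exception was TRINITY_DN176806_c0_g1_i2, at 48.9 CPM with a CV of 8.15%, whose other isoform TRINITY_DN176806_c0_g1_i1 was the more abundant, at 83.3 CPM with a CV of 14.3%. These isoforms were named after their values were seen. Summing by gene left the median CV of these 26 at 6.83%, against 6.92% for the members alone, and it was lower for 10 and higher for 16. Reads shared between isoforms may have been assigned to either, so levels of single isoforms are uncertain.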

How the data were processed

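Messenger RNA of 12 libraries of whole adults was sequenced as paired-end reads from stranded libraries, per the labels' protocols. The deposited values are raw counts per assembled transcript. HTSeq 0.6.1, TopHat2 2.1.1, Trim Galore 0.4.1 and edgeR were used, per the submitters' processing notes, which state neither role nor order. How the transcripts were assembled, how reads were counted and whether transcripts were filtered is not given in the sources used here. The members and lists were chosen with earlier results of these data known.

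The libraries held 11582848 to 32504862 counts. CPM was computed on totals without TRINITY_DN157064_c6_g3_i1. Libraries were grouped by labelled treatment, 3 per group, and the replicate numbers pair no libraries. Between-group shares are sums of squares of CPM, with no correction for chance differences between group means. Counting error was taken as Poisson from each library's total, which is a lower limit because reads are not independent molecules. Tests used edgeR 4.0.16 in R 4.3.3 (quasi-likelihood, robust, TMM, minimum count 10, 4 groups in 1 fit, 8 residual degrees of freedom), with Benjamini-Hochberg adjustment over 40943 transcripts and a threshold of 0.05. SEs are the log2 difference over the root of F, so 95% intervals are approximate. The largest transcript stayed in this fit. edgeR and the choice were also run on simulated counts, from which nothing is read here. For edgeR these counts had a smaller spread than the fit gave the real data. For the choice they had a clear gap in spread between stable and other transcripts, which the real data lack. Named transcripts are the 8 members with the lowest and the 2 with the highest CV, the 2 just beyond the limit, the 3 highest and 3 lowest in mean CPM, the 3 largest and 2 smallest in between-group share, the one with the most extreme library and the smallest edgeR p per pair and direction. Others were named after their values were seen. Lists of named genes planned for counting were not counted, since identifiers carry no names. Other settings were DESeq2 1.42.0, other scalings, filters, measures of spread, thinning and leaving out each library. Summaries used Python 3.11.15, NumPy 2.4.6, pandas 2.3.3 and matplotlib 3.10.9. No sequences, gene names or genome were used here.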

Additional observations from a re-analysis of the deposited data

How the results depend on the processing

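Which transcripts count as the most stable depended on the total used for scaling. With library totals that keep the largest transcript, 12 of the 200 were chosen again and the median CV of the 200 was 22.5% instead of 7.25%, because that transcript's uneven share enters every other CPM value. With the median absolute deviation over the median in place of the CV, 58 were chosen again, a measure that passes over the most extreme libraries. With TMM factors 158 were chosen again, with RLE factors 163, after thinning to the smallest total 162 and after summing by Trinity gene 184. Leaving out 1 library gave 122 (without control replicate 2) to 181 of the 200 again, a median CV of 7.03% to 7.38% and a median share of variance between groups of 23.4% to 32.6%. The share between groups was 37.5% with totals that keep the largest transcript against 24.5% without it.

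No member passed an unadjusted p under 0.05 in edgeR under RLE factors, library totals, no low-count filter or fits of only the compared groups, nor in DESeq2. Leaving out 1 library gave 0 to 1 member for recovery against acute, the 1 being without acute replicate 3, and 0 for the other comparisons. The held-out deviation of the recovery group ranged from 0.0629 to 0.126 when 1 library was left out, the highest without recovery replicate 3. With TMM or RLE factors, tried after the data were seen, 15 of 200 chosen transcripts were more than 2-fold off in control replicate 2, instead of 12. Held-out deviations ranged from 0.0776 to 0.132 in the acute, 0.053 to 0.0991 in the sustained and 0.052 to 0.113 in the control group when 1 library was left out. No paired analysis was possible because the labels number no replicates within groups. Depth limits the members under 50 CPM most, where counting error made up 35.6% of the variance in the median member.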

Other observations

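The 200 most abundant transcripts, left out by the rule, held some of the most constant levels in the table. Of these, 23 had a CV at or under that of the last member, while the median of the 200 was 15%. TRINITY_DN190136_c1_g1_i1 had the lowest, 4.07%, with 604 ± 17 CPM (SD, n = 3) in the acute, 627 ± 10.8 CPM in the sustained, 635 ± 28.9 CPM in the recovery and 654 ± 19.6 CPM in the control group. TRINITY_DN180775_c1_g2_i1 followed with 4.23%, at 2589 ± 52.4 CPM in the acute, 2404 ± 92.3 CPM in the sustained, 2542 ± 127 CPM in the recovery and 2574 ± 54.4 CPM in the control group. TRINITY_DN163279_c0_g1_i1 had a CV of 4.8% around 1316 CPM. These values are descriptions of the same libraries that ranked them.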
